A study of Homo sapiens with 33 samples.

Results

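NPTX1, KHDRBS2 and NETO1 are 3 neuronal genes that human embryonic stem cells (hESCs) transcribe at low to moderate levels, and whose RNA was nearly or wholly missing from cells without EZH2. They were chosen by name from among the genes with the lowest RNA in EZH2-null relative to EZH2-restored cells, and are 3 of the 35805 genes in the RNA-seq table. In that ranking of the log2 difference, among genes that passed the test and did not overlap between the groups, they stood directly behind EZH2 itself. The last of them, NETO1, had a difference of -2.66 and the next gene outside, DAZL (a germ cell RNA-binding protein), one of -2.65. Those RNA values chose the genes, so every comparison that involves null or restored cells is given below as a description, with no test.

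The cells were H9 hESCs, an established line, of 4 genotypes. WT cells were EZH2+/+, Het cells carried a CRISPR/Cas9-disrupted allele (EZH2-/+), and Null cells were EZH2-/-. Null+EZH2 cells were EZH2-/- cells in which a piggyBac EZH2 transgene was switched on with doxycycline (DOX). The Null line had been made from an EZH2-/+ line that already carried the transgene, by a second round of targeting with DOX present, so Null and Null+EZH2 cells share that derivation. Which EZH2-/- line gave the Null libraries, whether it still held the transgene, and how many clones the libraries represent were not stated. RNA-seq of flow-sorted SSEA4-positive cells comprised 3 libraries of each genotype. ChIP-seq was done for the histone marks H3K4me1, H3K4me3, H3K27ac and H3K27me3, with input chromatin, in all 4 genotypes, and for EZH2 in WT cells. The study calls the libraries biological replicates without saying whether they are separate cultures, so the error below measures the spread between these libraries and may be technical.

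EZH2 is the catalytic subunit of Polycomb repressive complex 2 (PRC2), which places methyl groups on lysine 27 of histone H3. H3K27me3 marks repressed developmental genes, and in hESCs many of these promoters also carry H3K4me3, the mark of active or poised starts. NPTX1 encodes neuronal pentraxin 1, a secreted protein that clusters AMPA receptors at excitatory synapses. KHDRBS2 encodes SLM1, a STAR-family RNA-binding protein that regulates splicing of neurexin transcripts in neurons. NETO1 encodes a CUB-domain transmembrane protein that is an auxiliary subunit of kainate-type glutamate receptors and associates with NMDA receptors.

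All 3 genes are protein coding and lie on the minus strand of GRCh38. NPTX1 (ENSG00000171246) was counted on chromosome 17 from 80467148 to 80477843. KHDRBS2 (ENSG00000112232) was counted on chromosome 6 from 61679960 to 62286227. NETO1 (ENSG00000166342) was counted on chromosome 18 from 72742314 to 72868146. Their main transcripts in GENCODE release 44 have 5, 9 and 11 exons, with coding lengths of 1296, 1047 and 1599 bases. Promoter sequences spanning 250 bases before to 50 after the start were taken from RefSeq (GRCh38.p14), which held 2 of the 3 genes. Both are printed 5′ to 3′ on the minus strand, because they lie at the centre of the ChIP-seq windows described below and because H3K4me3 there differed between WT and Null cells. Capitals mark CG dinucleotides. The KHDRBS2 promoter is chr6:62286176-62286475 and the NETO1 promoter is chr18:72867938-72868237, and each ends within the gene's exon 1.
KHDRBS2: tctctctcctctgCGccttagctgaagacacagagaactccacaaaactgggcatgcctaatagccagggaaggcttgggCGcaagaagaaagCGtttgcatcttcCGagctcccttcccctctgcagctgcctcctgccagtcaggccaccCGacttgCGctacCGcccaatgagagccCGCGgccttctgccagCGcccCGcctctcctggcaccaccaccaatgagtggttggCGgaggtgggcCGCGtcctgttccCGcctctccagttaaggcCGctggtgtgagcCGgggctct
NETO1: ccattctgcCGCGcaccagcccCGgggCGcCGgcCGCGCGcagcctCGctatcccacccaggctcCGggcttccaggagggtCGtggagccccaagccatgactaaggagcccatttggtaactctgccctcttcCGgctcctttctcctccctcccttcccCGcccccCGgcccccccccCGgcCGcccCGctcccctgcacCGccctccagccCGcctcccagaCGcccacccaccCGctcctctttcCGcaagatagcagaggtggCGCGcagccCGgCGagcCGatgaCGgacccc
The KHDRBS2 promoter held 17 CG dinucleotides and 63.0% G and C, against medians of 14 and 58.7% over 35116 promoters in the table. The NETO1 promoter was richer in both, with 28 CG dinucleotides and 73.3% G and C. GGGCGG, searched on both strands, occurred 1 time in the KHDRBS2 and 3 times in the NETO1 promoter, and is found in 45.0% of all promoters. CCAAT occurred 2 times in the KHDRBS2 promoter and is found in 34.6% of all promoters. TATAAA and CACGTG, present in 11.5% and 7.26% of promoters, were matched in neither window.

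Library depth ranged from 16587860 to 36589089 reads on genes, and from 25019066 to 56845609 reads in all. RPM scales the count to the latter, so that 3 reads corresponded to 0.0528 to 0.120 RPM. EZH2 RNA checked the genotypes, at 59.5 to 68.6 RPM in WT, 45.7 to 55.4 in Het, 8.65 to 11.5 in Null and 256 to 385 in Null+EZH2 libraries. All 12 markers of undifferentiated hESCs were present, with a summed level of 2546 to 3200 RPM in WT, 3464 to 4264 in Het, 3909 to 4447 in Null and 3714 to 4396 in Null+EZH2 libraries. Relative to WT, 8 of the 12 were called higher and 1 lower in Null cells, where 12.6% and 18.8% of all genes were. In Null+EZH2 cells 7 were called higher, where 3.40% of all genes were. The part of these markers in the results below was not tested. The libraries numbered 3 stood apart from the others of their genotype on the second principal component, which held 17.1% of the variance, and values without them are given beside the results. Of the neural progenitor markers, PAX6 lay at 3.37 to 8.48 RPM in WT, 0.799 to 2.76 in Het, 0.510 to 1.76 in Null and 0.348 to 0.520 in Null+EZH2 libraries, and the 16 such markers summed to 483 to 724 RPM in WT, 491 to 665 in Het, 496 to 594 in Null and 419 to 581 in Null+EZH2 libraries. In Null relative to WT cells 5 of 13 tested were called lower and 1 higher, where 18.8% and 12.6% of all genes were. In Null+EZH2 relative to WT cells 5 were lower and 0 higher, where 6.90% and 3.40% of all genes were. In Null relative to Null+EZH2 cells 0 were lower and 1 higher, where 0.524% and 2.63% of all genes were. The median difference of the list was 0.10 there. Of that list 13 averaged at least 0.1 RPM over the libraries.

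NPTX1 RNA was present in all 12 libraries and lowest in Null cells. It measured 28.6, 16.7 and 30.8 RPM in WT libraries 1, 2 and 3, and 25.6, 12.5 and 91.5 RPM in Het libraries. In Null libraries the level was 0.756, 0.451 and 1.10 RPM, and in Null+EZH2 libraries it was 5.76, 7.37 and 18.9 RPM. Every Null library lay below every other library, and library 3 was the highest of each genotype. The Null values rested on 24 to 43 reads per library. The mean was 25.4 ± 7.57 RPM (SD, n = 3) in WT and 0.768 ± 0.324 RPM in Null cells, a ratio of 33.0. Null+EZH2 cells averaged 10.7 ± 7.15 RPM, 13.9 times the Null mean and below the WT mean by a factor of 2.38. By their medians the order was WT, Het, Null+EZH2 and Null. The neighbours WT and Het overlapped in range, as did Het and Null+EZH2, whereas Null+EZH2 and Null did not. In bulk RNA, fewer cells that transcribe a gene and less RNA per cell cannot be told apart.

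KHDRBS2 gave no reads in any Null library. It measured 3.26, 4.34 and 1.84 RPM in WT libraries and 2.01, 1.53 and 2.99 RPM in Het libraries. In Null+EZH2 libraries it reached 0.334, 0.375 and 1.36 RPM, on 13, 14 and 34 reads. The 3 Null+EZH2 libraries thus lay above the Null libraries and below all Het and WT libraries. Against a floor of 3 reads in each Null library, the mean was at least 47.6-fold higher in WT cells, at least 33.0-fold higher in Het cells and at least 10.4-fold higher in Null+EZH2 cells. The WT mean of 3.15 ± 1.25 RPM (SD, n = 3) was 4.56 times the Null+EZH2 mean of 0.689 ± 0.580 RPM. The Null+EZH2 mean leans on library 3, with 1.36 RPM, and without that library the log2 difference from WT changed from -2.19 (standard error 0.46) to -2.76.

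NETO1 was represented in Null cells by a lone read in library 2. It measured 1.60, 0.685 and 0.852 RPM in WT libraries and 0.334, 0.750 and 0.719 RPM in Null+EZH2 libraries. Het libraries were the highest, at 2.89, 3.44 and 2.15 RPM, and did not overlap with WT. WT and Null+EZH2 ranges overlapped through WT library 2, at 0.685 RPM. The log2 difference of Null+EZH2 from WT was -0.69 (standard error 0.36), and the overlap does not show that the WT level was reached. Pooled over libraries, 138 WT reads stood against 1 Null read, a depth-scaled ratio of 152 with a 95% exact interval of 26.9 to 6062. For Null+EZH2 against Null cells the ratio was 83.8 (14.5 to 3366), and for WT against Null+EZH2 cells it was 1.82 (1.33 to 2.51). These intervals cover counting error only and not the spread between libraries. NETO1 was chosen on its Null and Null+EZH2 values, so the intervals are no test of a difference.

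**Figure D1:**
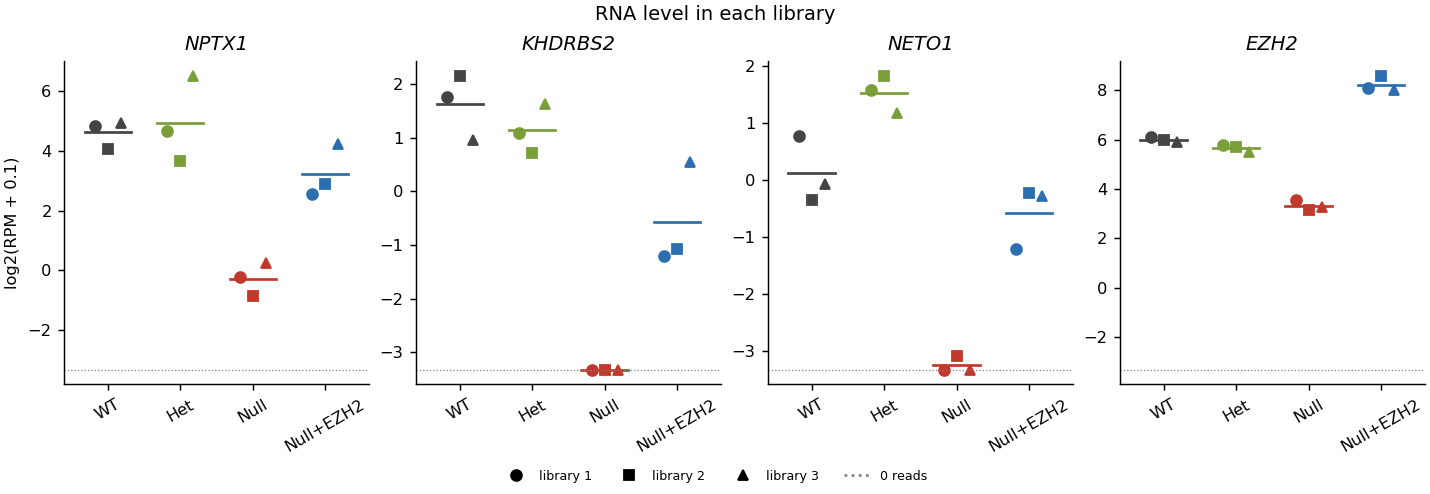
RNA level of NPTX1, KHDRBS2, NETO1 and EZH2 as log2(RPM + 0.1), 1 symbol per library with the library number given by its shape, a bar for the mean of 3 libraries, and a dotted line where a gene with 0 reads falls. For each of the 3 neuronal genes the Null libraries are lowest, and for KHDRBS2 they all sit on the dotted line.

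Relative to WT on the log2(RPM + 0.1) scale, which understates changes of low genes, the Null difference was -4.90 (standard error 0.62) for NPTX1, -4.94 (0.46) for KHDRBS2 and -3.35 (0.36) for NETO1. The last 2 differences depend on the added constant because their Null levels are at or near 0. Without the libraries numbered 3 the Null minus WT differences were -5.00 for NPTX1, -5.27 for KHDRBS2 and -3.41 for NETO1. All 3 genes had every Null library below every WT library, which held for 29.2% of the 20608 genes tested. KHDRBS2 also had every Null+EZH2 library below every WT library, as did 22.4% of genes, whereas NPTX1 and NETO1 did not. For NPTX1 the overlap came from Null+EZH2 library 3 (18.9 RPM) lying above WT library 2 (16.7 RPM), and within each library number the Null+EZH2 level was below the WT level. In Null relative to Null+EZH2 cells, the comparison that chose the genes, the differences were -3.51, -2.74 and -2.66, and the groups did not overlap for these 3 genes or for 9.70% of genes in the same direction.

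The comparison of Het with WT cells uses levels that did not rank the genes and was tested, although all 12 libraries share an estimate of the spread with the fit behind the choice. None of the 3 genes passed an adjusted p of 0.05 in limma or in voom, and 1 of them, NETO1, had an unadjusted p under 0.05, in a comparison where 0.180% of genes were called higher and 0.966% lower. NETO1 had the widest separation of the 3, with a log2 difference of 1.41 (standard error 0.36) and an adjusted p of 0.10 (limma with Benjamini-Hochberg adjustment over 20608 genes). All 3 Het libraries were above all 3 WT libraries, which 3.17% of genes showed in that direction. With a constant of 1 RPM in place of 0.1 the NETO1 difference passed, at 0.92 and an adjusted p of 0.029 in limma, and over all alternatives the adjusted p ran from 0.029 to 0.44. For KHDRBS2 the difference was -0.48 (standard error 0.46, limma adjusted p = 0.84), and without the libraries numbered 3 it was -1.06 (limma adjusted p = 0.059). For NPTX1 the difference was 0.33 (standard error 0.62, limma adjusted p = 0.95), and its sign turned to -0.45 without Het library 3, the library with 91.5 RPM. Of the neural progenitor markers 2 of 13 tested, POU3F2 and SOX1, were called lower in the same comparison, and the median difference of the list was -0.19.

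The genes whose RNA varied most like these 3 were found by Pearson correlation over the 12 libraries, among 15480 gene names with a mean of at least 1 RPM. The correlations are descriptive, since the points share 4 genotypes and the depth of their libraries. For NPTX1 the nearest included FEZ1, an axon growth and kinesin adaptor protein (r = 0.992), CHN1, a Rac-regulating protein of neurons (0.980), PTGIS, which makes prostacyclin (0.977), and GALNT12, a mucin-type glycosyltransferase (0.976). FEZ1 averaged 86.7 RPM in WT, 96.2 in Het, 18.1 in Null and 49.1 in Null+EZH2 cells. For KHDRBS2 the nearest were JAM2, a junctional adhesion molecule (0.988), TBL2 (0.984) and APH1B, a gamma-secretase subunit (0.977). JAM2 averaged 6.95 RPM in WT, 5.52 in Het, 0.606 in Null and 3.05 in Null+EZH2 cells. For NETO1 they were CHODL, a C-type lectin family membrane protein (0.966), PARD6A, a cell polarity protein (0.956), and SFRP1, a secreted Wnt antagonist (0.942). CHODL had the NETO1 order of genotypes, with 1.22 RPM in WT, 3.70 in Het, 0.129 in Null and 1.21 in Null+EZH2 cells. Among the 3 genes themselves r was 0.942 for NPTX1 with KHDRBS2, 0.890 for NPTX1 with NETO1 and 0.882 for KHDRBS2 with NETO1. These 3 were chosen for low RNA in Null relative to Null+EZH2 cells, whose libraries are among the 12. A high r among them thus follows in part from the choice.

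Listed genes within 100 kb gave a local view. Around NPTX1, RPTOR, a subunit of the mTORC1 complex, averaged 23.4 RPM in WT and 26.5 RPM in Null cells, and RNF213, a large ubiquitin ligase, 64.0 and 46.0 RPM. ENDOV averaged 9.51 and 7.67 RPM and the RNA CTD-2047H16.4 2.33 and 1.36 RPM, so none of these neighbours came near the NPTX1 ratio. CTD-2526A2.2 and CTD-2526A2.4 stayed under 0.1 RPM in every genotype mean. At the 3′ end of KHDRBS2, RP1-240B8.3 overlaps it by 1090 bases on the same strand and averaged 0.395 RPM in WT and 0 in Null cells, and reads in the shared stretch cannot be assigned to either gene. AL356135.1 was listed at 0 throughout. RP11-713C5.1 lies inside NETO1 on its strand and averaged 0.215 RPM in Het, 0.0587 in WT and 0 in Null cells. RP11-676J15.1, on the opposite strand beside the NETO1 start, averaged at most 0.0893 RPM.

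At the promoters, the 3 genes differed in their Polycomb marks but shared lower H3K4me3 in Null cells. ChIP-seq values are RPM in 5 kb windows centred on a start. Each histone or input value averages the log2 values of 2 libraries, so there is no replicate error and no test, and the intervals given cover counting error only. Where a gene had several windows (4 for NPTX1, 7 for NETO1, 1 for KHDRBS2), the window with the most WT H3K27me3 was used. In WT cells EZH2 itself measured 10.8 RPM at NPTX1, rank 34 among 35683 gene names, 2.77 RPM at NETO1, rank 743, and 0.472 RPM at KHDRBS2, rank 11512. The median of all names was 0.290 RPM. H3K27me3 in WT cells had the same order, with 48.2 RPM at NPTX1 (rank 111), 20.7 RPM at NETO1 (rank 1382) and 4.88 RPM at KHDRBS2 (rank 6732). With thresholds of over 0.1 log2 RPKM for H3K27me3 and under 0.1 for input, applied to these values, NPTX1 and NETO1 were among 6235 H3K27me3 promoters, a set that is larger than the one the study describes, and KHDRBS2, at -0.04, lay just below it.

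H3K27me3 was far lower at NPTX1 and NETO1 in Null cells and back near WT in Null+EZH2 cells. NPTX1 went from 48.2 RPM in WT and 52.9 RPM in Het to 2.71 RPM in Null and 39.2 RPM in Null+EZH2 cells. The Null minus WT difference was -4.10 ± 0.34 on the log2 scale (95% counting interval). NETO1 measured 20.7, 19.5, 3.42 and 21.4 RPM in the same order, a difference of -2.57 ± 0.33. A difference of -1 or lower was the rule at H3K27me3 promoters, at 98.3% of 6235, and 89.8% of them had a lower value than NETO1. KHDRBS2 measured 4.88 RPM in WT, 6.18 in Het, 2.83 in Null and 2.18 in Null+EZH2 cells. Its Null minus WT difference was -0.76 ± 0.44, and its Null+EZH2 minus WT difference was -1.13 ± 0.46, so its value was not nearer to WT with the transgene on. The 3 Null values lay above the Null median of 0.865 RPM over all names.

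H3K4me3 was lower in Null than in WT cells at each of the 3 starts. KHDRBS2 showed the widest gap, from 9.80 RPM in WT and 13.3 RPM in Het to 0.987 RPM in Null and 2.67 RPM in Null+EZH2 cells. The Null minus WT difference was -3.19 ± 0.71, and of 15537 promoters with H3K4me3 in WT cells (over 0.1 log2 RPKM) 1 had a lower value. NETO1 measured 9.66 RPM in WT, 24.9 in Het, 3.74 in Null and 8.10 in Null+EZH2 cells, with a Null minus WT difference of -1.34 ± 0.47 and 85 promoters lower. NPTX1 measured 15.3, 20.5, 7.56 and 13.7 RPM in that order, a difference of -1.004 ± 0.36 with 255 promoters lower. A difference of -1 or lower was seen at 1.68% of these promoters, whose median difference was 0.13. In Null+EZH2 cells H3K4me3 was within counting error of WT at NPTX1 (-0.16 ± 0.31) and NETO1 (-0.25 ± 0.39) but not at KHDRBS2 (-1.84 ± 0.45). The WT H3K4me3 column was the shallowest, with about 33.6 reads per library at KHDRBS2 compared with 163 in Het, 10.2 in Null and 46.5 in Null+EZH2 cells.

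**Figure D2:**
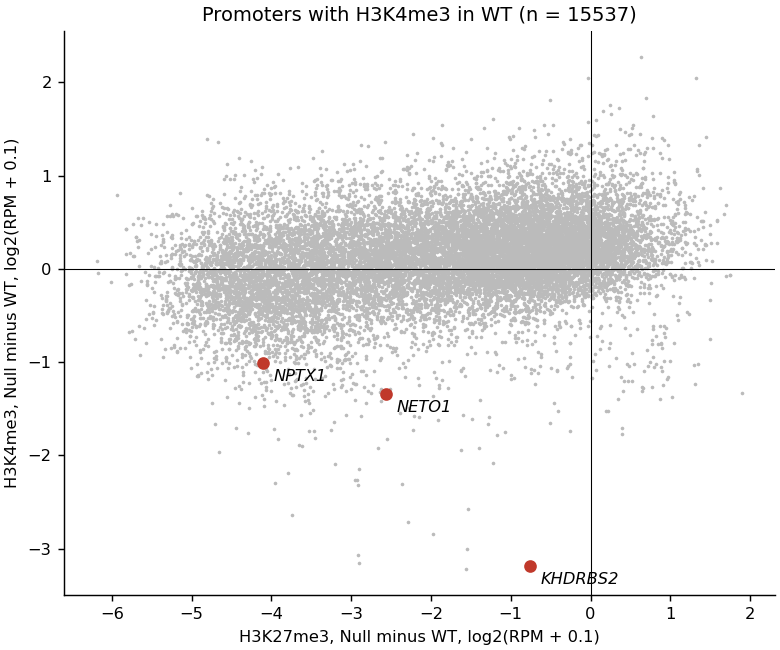
Null minus WT difference in H3K4me3 (vertical axis) against that in H3K27me3 (horizontal axis), both on the log2(RPM + 0.1) scale, 1 grey point for each of 15537 promoters with H3K4me3 in WT cells. NPTX1, NETO1 and KHDRBS2, in red, lie at the lower edge of the cloud, with H3K27me3 differences of -4.10, -2.57 and -0.76.

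In Het cells the H3K4me3 of NETO1 was higher than in WT by 1.36 ± 0.37 on the log2 scale, in the direction of its RNA. The median promoter with H3K4me3 was also higher in Het, by 0.51, and 105 of the 15537 promoters exceeded NETO1. NPTX1 (0.42) and KHDRBS2 (0.44) lay slightly under that median. H3K27me3 at NETO1 differed by -0.09 ± 0.20 between Het and WT cells, within counting error.

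The other marks separated KHDRBS2 from NPTX1. H3K4me1 at KHDRBS2 was 2.12 RPM in WT, 2.39 in Het, 0.435 in Null and 0.772 in Null+EZH2 cells, a Null minus WT difference of -2.05 ± 0.96. At NPTX1 it was 5.35, 5.86, 5.83 and 4.78 RPM, and at NETO1 2.43, 3.15, 2.08 and 1.80 RPM, with Null minus WT differences of 0.12 ± 0.35 and -0.22 ± 0.55. H3K27ac was low at all 3 starts, with 1.16 RPM at NPTX1, 0.826 RPM at KHDRBS2 and 0.788 RPM at NETO1 in WT cells. These exceeded 11.3%, 4.92% and 4.50% of gene names. In Null cells H3K27ac measured 1.46, 0.257 and 0.218 RPM, the last pair on about 2 reads per library, too few to resolve a difference from WT. Input chromatin was measured beside the marks. Its Null minus WT difference was -0.70 ± 0.55 at KHDRBS2 and -0.67 ± 0.69 at NETO1, against -0.05 ± 0.64 at NPTX1. Of all gene names, 0.530% had a lower input difference than KHDRBS2, 0.659% a lower one than NETO1 and 42.7% a lower one than NPTX1. In Null+EZH2 minus WT it was 0.02 ± 0.46 at KHDRBS2 and -0.63 ± 0.66 at NETO1. The median input difference over other windows within 5 Mb was -0.05 around KHDRBS2 and -0.07 around NETO1, and the part of input in the mark differences was not tested.

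**Figure D3:**
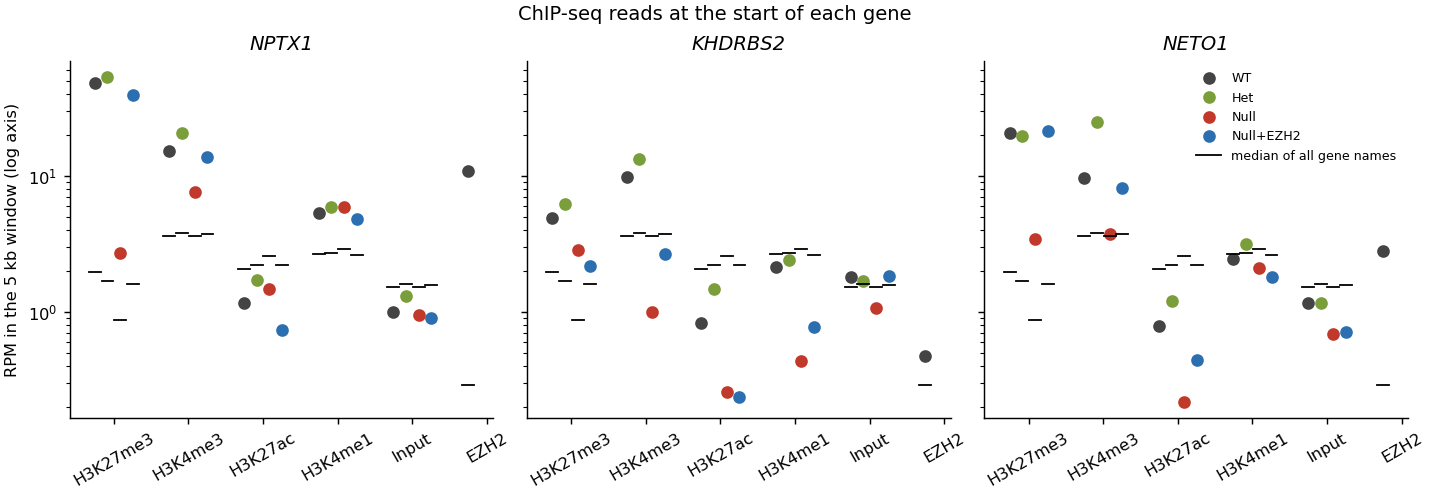
ChIP-seq RPM (log axis) in the 5 kb window of each gene for 4 histone marks and input in WT, Het, Null and Null+EZH2 cells and for EZH2 in WT cells, with short black bars at the median of all gene names. H3K27me3 drops out of the high range in Null cells at NPTX1 and NETO1, and H3K4me3 in Null cells lies below the median of all names at KHDRBS2.

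Genes of the same families, of the receptors that NPTX1 and NETO1 act on and of the splicing network around KHDRBS2 were then counted, 49 in all, of which 46 passed the filter of a mean of at least 0.1 RPM. GRIA2, CACNG2 and CACNG3 did not pass it. In Null relative to Null+EZH2 cells 4 of the 46 were called, all of them higher, where 2.63% of all genes were higher and 0.524% lower. With the library number as a block 6 were higher and 1 lower, where 6.19% and 3.21% of all genes were. Without the libraries numbered 3, 1 was higher and 0 lower, where 1.17% and 0.354% of all genes were. The 4 were GRIA1, an AMPA receptor subunit, with a log2 difference of 2.04 (limma adjusted p = 0.011), ELAVL4, a neuronal RNA-binding protein (1.68, adjusted p = 0.018), GRIN1, the obligatory NMDA receptor subunit (1.65, adjusted p = 0.018), and CACNG4, an AMPA receptor auxiliary subunit (1.06, adjusted p = 0.039). GRIA1 averaged 1.57 RPM in WT, 0.489 in Het, 1.62 in Null and 0.316 in Null+EZH2 cells, with a Null minus WT difference of 0.10 (standard error 0.36), and GRIN1 stayed under 0.5 RPM in every library. The median difference over the 46 genes was 0.11, beside 0.02 over all genes.

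In Null relative to WT cells 4 of the 46 genes were called higher and 14 lower, where 12.6% of all genes were higher and 18.8% lower. Neurexins and neuroligins, the presynaptic and postsynaptic partners in synaptic adhesion, made up 6 of the 14, among them NRXN3 (-1.58), NLGN2 and NLGN3. Their log2 differences ranged from -2.73 for NLGN3 to -0.74 for NLGN2, and NLGN4X, with 0.76 and a limma adjusted p of 0.18, was the member not called. Among splicing regulators 3 of 11 were lower, NOVA2 (-2.28), NOVA1 (-1.19) and RBFOX2 (-0.50). GRIK1 (-2.91), a kainate receptor subunit, GRIN2A (-2.50), an NMDA receptor subunit, and CNIH2 (-1.26) and CACNG7 (-1.23), AMPA receptor auxiliary subunits, were also lower, as was QKI (-0.92), a STAR-family relative of KHDRBS2. The 4 called higher were GRIN2D (2.97), GRIN1 (1.63), SHISA9 (1.13) and CACNG4 (0.88). The nearest relatives NETO2, NPTX2, NPTXR, KHDRBS1 and KHDRBS3 were not called, with differences from -0.22 to 0.49. With the block the counts were 8 and 15, where 17.3% of all genes were higher and 28.0% lower. Without the libraries numbered 3 they were 7 and 13, where 15.2% and 25.6% of all genes were called. In these alternative settings the shares of the 46 lay near those of all genes. In the main fit the share called lower, 14 of 46, was above the 18.8% of all genes. With median-ratio rescaling 6 of the 46 were higher and 14 lower, where 3378 and 2822 of the 20608 genes were.

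Null+EZH2 cells also differed from WT cells at related genes. Of the 46 genes 1 was called higher and 10 lower, where 3.40% of all genes were higher and 6.90% lower, and with the block the counts were 4 and 15, where 6.26% and 16.1% of all genes were called. Without the libraries numbered 3 they were 2 and 12, where 7.97% and 15.6% were. GRIN2D was the higher one (2.07, limma adjusted p = 0.0079), and NRXN3 (-1.94, adjusted p = 0.0026), GRIK1 (-1.99, adjusted p = 0.0093) and NLGN3 (-1.54, adjusted p = 0.018) were among the lower ones. NRXN3 averaged 9.51 RPM in WT, 3.11 in Null and 2.38 in Null+EZH2 cells. In Null relative to Null+EZH2 cells the median over the 7 neurexins and neuroligins was 0.01, and NLGN3 had a difference of -1.19 (limma adjusted p = 0.099). These comparisons share libraries with each other. In Het relative to WT cells 1 of the 46 was called, where 0.180% of all genes were higher and 0.966% lower. It was NRXN3, lower at 2.43 RPM against 9.51 RPM (log2 difference -1.87, limma adjusted p = 0.012). With the block 1 was higher and 2 lower, where 0.718% and 2.16% of all genes were. Without the libraries numbered 3 the count was 3, all lower, where 4.24% of all genes were lower.

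**Figure D4:**
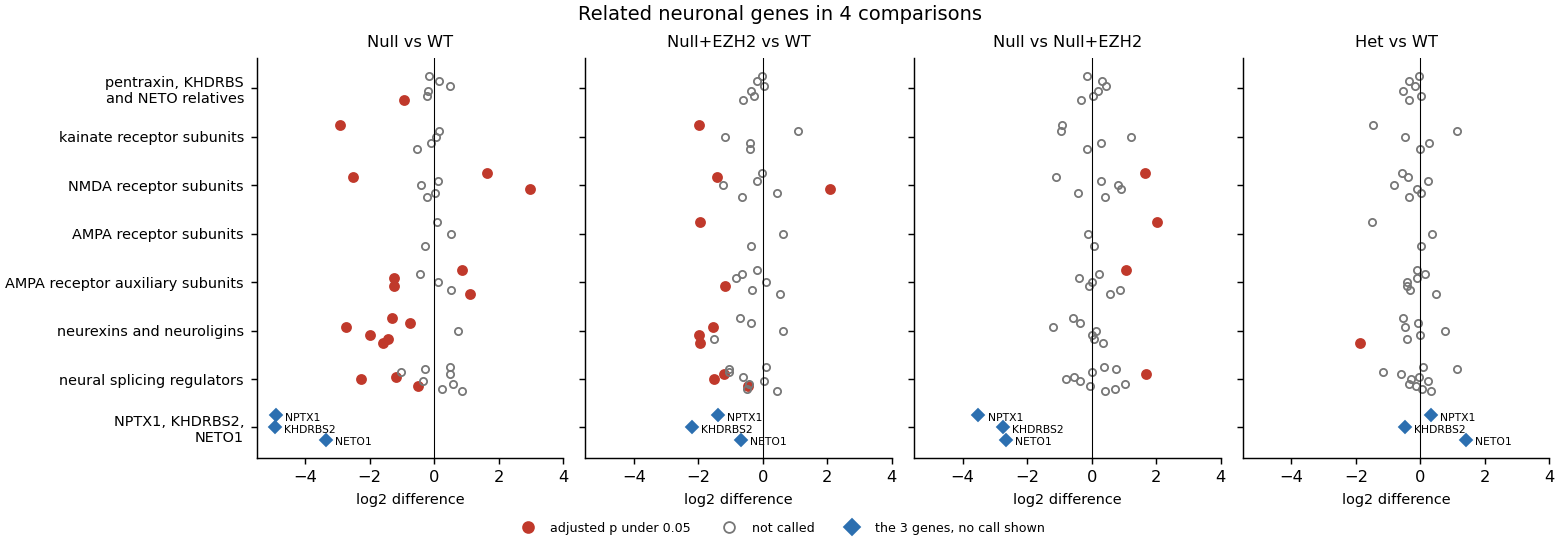
Log2 differences of 46 related genes by family and of NPTX1, KHDRBS2 and NETO1 (blue diamonds, no call shown) in 4 comparisons, with filled red points for genes with an adjusted p under 0.05 and open points for the rest. The 3 blue diamonds lie left of 0 in each of the first 3 panels, whereas the red points of Null against Null+EZH2 lie right of 0.

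Neuron and germ layer markers were measured beside these results. The 12 neuron markers summed to 300.4 to 326 RPM in WT, 248 to 268 in Het, 255 to 297 in Null and 191 to 227 in Null+EZH2 libraries. Of the 11 tested 0 were called between Null and Null+EZH2 cells in limma or in voom, 3 had an unadjusted p under 0.05, and the median difference was 0.46. SNAP25, a defining marker of mature neurons, averaged at most 0.10 RPM in every genotype, but 11 of the 12 markers averaged at least 0.1 RPM over the libraries. Relative to WT, 2 of the 11 were called higher and 2 lower in Null cells, where 12.6% and 18.8% of all genes were. In Null+EZH2 relative to WT cells 3 were called lower and 0 higher, where 6.90% and 3.40% of all genes were. The 10 mesoderm markers summed to 20.2 to 49.2 RPM in WT, 8.11 to 85.7 in Het, 143 to 252 in Null and 24.7 to 125 in Null+EZH2 libraries, and 4 of the 10 were called higher in Null relative to Null+EZH2 cells, where 2.63% of all genes were. The 6 endoderm markers summed to 21.9 to 46.4, 14.8 to 442, 149 to 431 and 21.8 to 49.9 RPM in that order, with 3 of 6 called higher. The 9 mesenchyme and fibroblast markers, which would also mark feeder-like or differentiated cells, summed to 338 to 408, 273 to 343, 350.1 to 759 and 255 to 349.8 RPM, with 3 of 8 called higher. With voom 2 mesoderm, 1 endoderm and 1 mesenchyme and fibroblast marker were called, where 238 of 20608 genes were higher and 36 lower. The part of cells with these markers in the level of NPTX1, KHDRBS2 and NETO1 was not tested.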

How the data were processed

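RNA-seq of flow-sorted cells and native ChIP-seq (crosslinked for EZH2) were processed by the authors with Trim Galore 0.4.0, TopHat2 2.0.12 or Bowtie2 2.2.5 on GRCh38, and counted in SeqMonk, without regard to strand for RNA. The authors deposited log2 RPM per gene (12 RNA columns) and per window (21 ChIP columns). The paper describes ChIP columns as averages of 3 replicates, whereas the labels name 2 and the low values fell on the steps given by 2 (1 for EZH2). Genes without a read were deposited at 0.9 of 1 read and were returned to 0. Below 1000 reads, 100% of RNA values were whole multiples of 1 read (tolerance 0.01 reads), so reads could be recovered for counting intervals.

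The members and gene lists were chosen with earlier results of these data known. Limma 3.58.1 (R 4.3.3, lmFit and eBayes with trend) was fitted on log2(RPM + 0.1) over all 12 libraries. It covered the 20608 of 35805 genes averaging 0.1 RPM or more, with Benjamini-Hochberg adjustment over all of them. The fit was also run on simulated counts. These held no effect of the library number, so that run does not check the fit under such an effect. The authors used DESeq2 on raw counts, which were not used here. Named were the 3 genes, EZH2, listed genes within 100 kb, related genes that were called, the 5 genes most alike to NPTX1 and 3 each for KHDRBS2 and NETO1 and the gene next in the ranking; DAZL is that gene. Where a name occurs more than once, the row with the highest mean was used. Marker genes are named from fixed marker lists, with PAX6, SOX1 and SNAP25 picked after their values were seen. Some genes that the rule names are not reported here.

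Library numbers recur in every genotype. Deviations from the genotype means correlated between same-numbered libraries in every pair, with a lowest r of 0.107. Other pairs had a mean r of -0.159 and ran from -0.488 to 0.245, so the 2 ranges overlap. The pairs numbered 2 were the weakest, with a mean of 0.202. The numbers may pair the libraries, but the paper names no pairing. The main fit did not include the number. The standard errors and adjusted p-values above come from that fit unless another setting is named. A fit with the number as a block is given where it changes a count. With the block the standard error of Null minus WT was 0.35 for NPTX1, 0.45 for KHDRBS2 and 0.37 for NETO1. Alternatives were other constants, filters, median-ratio rescaling, voom on recovered reads, each library left out, and other ChIP windows. Leaving out every library numbered 3 was added after seeing the data.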

Additional observations from a re-analysis of the deposited data

How the results depend on the processing

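Under the alternatives to log2(RPM + 0.1), the Null differences changed in size. Their direction was set by the choice of the genes, with every Null library below every WT and Null+EZH2 library. That it stayed the same is therefore no support. With a constant of 1 RPM the Null minus WT differences were -3.87 for NPTX1, -2.00 for KHDRBS2 and -0.998 for NETO1, and the Null minus Null+EZH2 differences -2.57, -0.70 and -0.66. KHDRBS2 in Null+EZH2 minus WT was then -1.30. With 0.05 RPM the values of KHDRBS2 were -5.91 (Null minus WT) and -3.62 (Null minus Null+EZH2), and those of NETO1 -4.21 and -3.48. With voom on recovered reads they were -8.10 and -5.62 for KHDRBS2 and -6.02 and -5.21 for NETO1. Leaving out each library in turn gave -2.76 to -1.88 for KHDRBS2 in Null+EZH2 minus WT and -3.06 to -2.18 in Null minus Null+EZH2, and leaving out every library numbered 3 gave -3.09 and -2.18.

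For Het against WT, NPTX1 ranged from -0.45 to 0.98 when single libraries were left out, and was -0.29 without the libraries numbered 3. NETO1 passed with a constant of 1 RPM (0.92, limma adjusted p = 0.029). The replicate block changed no call of the 3 genes (limma adjusted p of 0.65 for KHDRBS2, 0.70 for NPTX1 and 0.068 for NETO1). Of the related genes, called counts with the block were 7 (Null against Null+EZH2), 3 (Het against WT) and 19 (Null+EZH2 against WT). The shares over all genes with the block are given above. For Null against Null+EZH2 the count was 0 with a mean of at least 1 RPM in limma (6 at an unadjusted p under 0.05), 1 with voom, 1 without the libraries numbered 3, and 1 to 4 with a library left out. It was 1 without Null library 2 or 3 or Null+EZH2 library 1, and 2 without Null+EZH2 library 2 or 3. For Het against WT the related count was 0 without the filter in limma (4 at an unadjusted p under 0.05). It was 3 without the libraries numbered 3, and 0 to 2 with a library left out. It was 0 without WT library 2 or Het library 2 in limma (3 and 4 at an unadjusted p under 0.05). It was 2 without Het library 1 or 3. Calls over all genes were 37 higher and 199 lower in the main fit, and 2 and 44 of 35805 without the filter. They were 360 and 874 without the libraries numbered 3, 7 and 58 without WT library 2, and 8 and 57 without Het library 2. Without Het library 1 they were 18 and 94, and without Het library 3 151 and 451. For Null+EZH2 against WT the related count was 6 to 12 with a library left out, 6 without WT library 1 and 7 without Null+EZH2 library 2. Calls over all genes were 701 higher and 1422 lower in the main fit. They were 340 and 551 without WT library 1, and 328 and 585 without Null+EZH2 library 2. Median-ratio rescaling moved the median Null minus WT difference over all genes from -0.13 to -0.01, and calls over all genes from 2593 higher and 3870 lower to 3378 and 2822. The calls went from 37 and 199 to 57 and 125 for Het against WT and from 701 and 1422 to 1030 and 877 for Null+EZH2 against WT.

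With the first listed window NPTX1 H3K27me3 was -4.55 (Null minus WT), and NETO1, whose first listed window lies inside the gene far from the marked start, was 2.32 for H3K27me3, -0.37 for H3K4me3 and -1.23 for H3K4me1. With a constant of 1 RPM NPTX1 H3K27me3 was -3.73 and KHDRBS2 H3K4me3 -2.44. The reads in Null libraries limit KHDRBS2 and NETO1, and for KHDRBS2 the fold is a lower bound.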
